A study of Oncorhynchus mykiss with 6 samples.

Results

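miR-199 and miR-214 were examined in the livers of rainbow trout (Oncorhynchus mykiss) under heat stress. The members are the names whose family part is exactly miR-199 or miR-214 in the deposited tables. They are 4 of 2730 names, namely miR-199-x, miR-199-y, miR-214-x and miR-214-y. Mature miRNAs were counted in 6 liver libraries, 3 from fish warmed at a constant rate to 24 °C (heat) and 3 from fish held at 18 °C (control). All fish were aged 150 days and female per the labels, no strain, transgene or drug is named, and both groups had been kept at 18 °C beforehand. How many fish or tanks stand behind a library is not stated in the labels, and neither is whether the libraries come from separate fish. The p-values thus reflect library-to-library spread, part or all of which may be technical. Library totals ran from 9267658 to 12778484 counts.

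A miR-199 and a miR-214 hairpin are encoded close together in vertebrates. They are processed from a shared non-coding transcript, known in mouse as Dnm3os, that lies antisense within the gene of dynamin 3. In mouse embryos the transcript is made in mesenchyme under the factor Twist1, and in rodent and human liver both miRNAs have been linked to hepatic stellate cells, the collagen-producing cells of the sinusoid wall, and to fibrosis. Each hairpin can release a mature strand from either arm, and each strand has targets of its own set by its seed, bases 2 to 8. In mammalian cells the targets described include HIF1A for the 5′ strand of miR-199, MET and MTOR for its 3′ strand, and EZH2 for the 3′ strand of miR-214, while in zebrafish miR-214 acts on the hedgehog inhibitor sufu.

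The sequences below are those of the deposited tables, written 5′ to 3′ as DNA, with the seed in capitals. They are shown because each name carries a seed of its own, so that the names of a hairpin have different target sets.
miR-199-x: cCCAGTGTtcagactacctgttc
miR-199-y: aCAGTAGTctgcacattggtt
miR-214-x: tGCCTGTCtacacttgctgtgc
miR-214-y: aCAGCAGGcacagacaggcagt

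The files do not define the endings x and y. The sequences themselves pair as the strands of a hairpin do. In RNAduplex, miR-199-x and miR-199-y formed 18 base pairs at -24.0 kcal/mol, and miR-214-x and miR-214-y formed 17 base pairs at -28.0 kcal/mol. The 4 combinations across the families reached only -8.70 to -11.0 kcal/mol, with 8 to 16 base pairs. miR-199-y and miR-214-y start with the same 4 bases and differ at 2 of the 7 seed positions, and all other pairs of members differ at 4 or more. No other name carried a member's sequence or came within 2 edits of one, so no near copy in these tables shares their counts. The files do not say whether a name pools several genomic copies. A single other name had a member's seed. It is a predicted miRNA (tCAGTAGTgcactataaagaga) that shares the seed of miR-199-y and was counted 3, 0 and 6 times in heat replicates 1 to 3 and 7, 6 and 4 times in control replicates 1 to 3.

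The 4 names were a large part of the liver profile, nearly all of it from miR-199. Which genomic copies gave these counts was not determined. The 4 names together took 9.60% ± 0.976 of counts in heat and 10.1% ± 2.31 in control (SD, n = 3 each). miR-199-x ranked between 2 and 6 among all names in every library, miR-199-y between 13 and 17, miR-214-y between 74 and 93 and miR-214-x between 129 and 153. The order of counts miR-199-x, miR-199-y, miR-214-y, miR-214-x was the same in 6 of 6 libraries. The ranges of neighbours in that order did not overlap over the libraries. The lowest miR-199-x level, 39488 normalized CPM (library-size-scaled counts), lay above the highest miR-199-y level, 19856 CPM, both in control replicate 2. That gap of 1.99-fold is smaller than the 2.91-fold range of miR-199-x itself over the libraries. The smallest gap between miR-199-y and miR-214-y in any library was 49.0-fold, and that between miR-214-y and miR-214-x was 3.41-fold. The mature sequences are 21 to 23 bases long, so scaling by length would move such a ratio by at most 1.10-fold. Small RNA libraries also recover different sequences unequally, so this is an order of counts. In bulk liver, fewer cells of a type and less RNA per cell cannot be told apart.

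The tissue label was checked against marker lists. Hepatocyte names summed to 239502, 385237 and 360079 CPM in heat replicates 1 to 3 and 365024, 225527 and 390347 CPM in control replicates 1 to 3, whereas retina and neural names, checked because a protocol field speaks of retina, summed to between 55.8 and 102 CPM. Control replicate 2 and heat replicate 1 stood apart in composition. Their TMM factors, which adjust library size for composition, were 1.25 and 1.24, against 0.870 to 0.916 in the other libraries. In them 2077 and 2157 names were detected, against 1579 to 1701. They also had the largest totals, 11894384 and 12778484 counts. Control replicate 3, the next largest at 11117223 counts, had 1701 names detected. The part of depth in the number of names detected was not tested. Fold changes, strand ratios and correlations of the members, and the list medians, are also given without control replicate 2 and heat replicate 1.

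None of the 4 members passed edgeR's quasi-likelihood test between 24 and 18 °C. Of 651 names tested, 0% were called at an adjusted p of 0.05, with 20 names at an unadjusted p under 0.05. DESeq2, run without the low-count filter of the other tools, called 2 of 2724 names with a p-value (0.0734%). With quality weights, limma-voom called 0, and no member was among the calls of any of the tools. Heat and control libraries overlapped for all 4 members, where 8.29% of all tested names had groups that did not overlap.

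miR-199-x, the most abundant member, stood at 57211, 107296 and 97218 CPM in heat replicates 1 to 3 and at 115078, 39488 and 111101 CPM in control replicates 1 to 3. The low values are those of the libraries that stand apart, heat replicate 1 and control replicate 2, and the other 4 libraries lay within a narrow band. The TMM factors of 1.24 and 1.25 in these libraries widen the gap. In raw counts the shares were 7.09% and 4.94%, against 8.83% to 10.5% in the other 4. The means were 87242 ± 26491 CPM in heat and 88556 ± 42540 CPM in control (SD, n = 3 each). The fitted log2 fold change was -0.02 ± 0.43 (SE, 95% interval -1.02 to 0.97, edgeR adjusted p = 0.995). That interval spans 0.494-fold to 1.96-fold. Without control replicate 2 and heat replicate 1 the log2 fold change was -0.18 (adjusted p = 0.786).

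miR-199-y, the paired strand, had nearly equal levels in heat, at 11215, 11836 and 11859 CPM in replicates 1 to 3, against 14032, 19856 and 10662 CPM in control replicates 1 to 3. Control replicate 2 was the highest library here, the reverse of its place for miR-199-x. The log2 fold change was -0.35 ± 0.27 (SE, 95% interval -0.97 to 0.27, edgeR adjusted p = 0.995), from means of 11636 ± 365 CPM in heat and 14850 ± 4651 CPM in control (SD, n = 3 each). It was -0.089 without control replicate 2, so most of the fitted difference rests on that library, and -0.092 without heat replicate 1 as well.

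miR-214-y, the more abundant strand of miR-214, measured 229, 183 and 200.3 CPM in heat replicates 1 to 3 and 256, 157 and 188 CPM in control replicates 1 to 3. Its log2 fold change was 0.02 ± 0.28 (SE, 95% interval -0.62 to 0.67, edgeR adjusted p = 0.995). Both the highest and the lowest library were controls, and without control replicate 2 and heat replicate 1 the value was -0.25 (adjusted p = 0.914). Of the 4 members it varied least within groups, with an SD of 0.276 in log2.

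miR-214-x, the scarcest member, was counted 619, 196 and 241 times in heat replicates 1 to 3 and 300, 687 and 283 times in control replicates 1 to 3, or 39.1, 24.3 and 25.9 CPM against 33.8, 46.2 and 28.6 CPM. Heat replicate 1 and control replicate 2 were the highest in their groups, where miR-199-x was lowest. The log2 fold change was -0.28 ± 0.36 (SE, 95% interval -1.12 to 0.56, edgeR adjusted p = 0.995), and -0.077 without control replicate 2. Without heat replicate 1 as well it was -0.35 (adjusted p = 0.914).

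**Figure D1:**
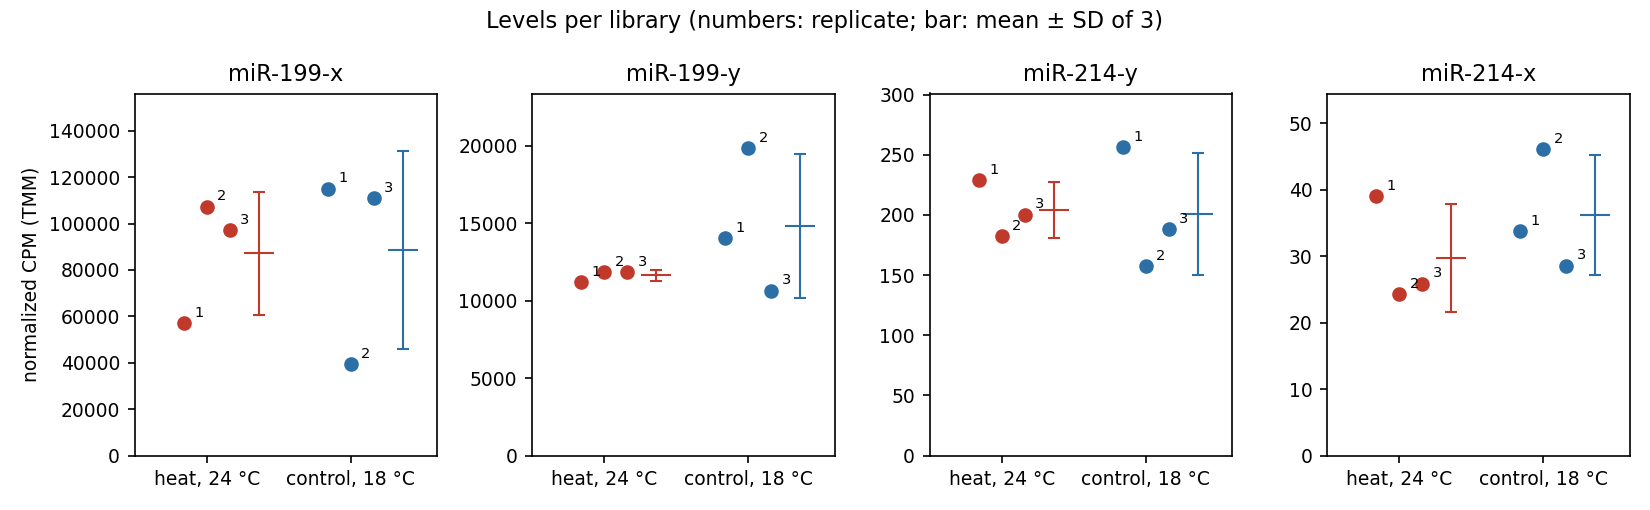
Normalized CPM of each member by library, heat at the left and control at the right of each panel, with the replicate number beside each point and a bar for the mean ± SD of 3 libraries. The groups overlap in every panel; heat replicate 1 and control replicate 2 are the lowest points of miR-199-x, and control replicate 2 is the highest of miR-199-y and miR-214-x.

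Within-group spread differed among the members. miR-199-x had an SD of 0.709 in log2 CPM, and 16 of 130 other known names above a mean log2 CPM of 5 had a larger one. For miR-199-y the SD was 0.320, for miR-214-x 0.356, and the median of known names was 0.395. For miR-199-y the spread was nearly all in the controls, with an SD of 0.450 in control against 0.0457 in heat.

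Shares of raw counts, which need no fitted scaling, were compared as well. miR-199-x held 7.09%, 9.33% and 8.83% of counts in heat replicates 1 to 3 and 10.5%, 4.94% and 9.89% in control replicates 1 to 3. Exact binomial 95% intervals, which cover counting error only, ran at the widest from 10.51% to 10.55%, in control replicate 1. miR-199-y held 1.39%, 1.03% and 1.08% in heat replicates 1 to 3 and 1.28%, 2.48% and 0.949% in control replicates 1 to 3, with control replicate 2 apart from the other 5. The differences of mean share between heat and control were -0.0393 percentage points for miR-199-x (exact permutation p = 1) and -0.407 for miR-199-y (exact permutation p = 0.7). The share of miR-214-y averaged 0.0208% ± 0.00663 in heat and 0.0200% ± 0.00336 in control (SD, n = 3 each, exact permutation p = 0.9), and that of miR-214-x 0.00310% ± 0.00151 in heat and 0.00381% ± 0.00173 in control (SD, n = 3 each, exact permutation p = 0.5). For the 4 names together the difference was -0.447 percentage points (two-sided exact permutation p = 0.8). Without control replicate 2 and heat replicate 1 the difference was -1.13 percentage points for miR-199-x (exact permutation p = 0.333, the smallest that 2 libraries against 2 can give). For miR-199-y it was -0.0637 (exact permutation p = 1). With 3 libraries against 3 this test cannot give a p under 0.1, and after adjustment over the 10 share and ratio values every p was 1.

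The balance between the strands varied widely between libraries. Counts of miR-199-x were 5.10, 9.07 and 8.20 times those of miR-199-y in heat replicates 1 to 3 and 8.20, 1.99 and 10.4 times in control replicates 1 to 3. A ratio within a library does not depend on scaling, and control replicate 2 was the lowest by a wide margin, followed by heat replicate 1. The mean log2 ratio was 2.86 ± 0.443 in heat and 2.47 ± 1.29 in control (SD, n = 3 each), a difference of 0.386 (two-sided exact permutation p = 0.9). Without control replicate 2 the difference was -0.353, so its sign rests on that library, and without heat replicate 1 as well it was -0.101.

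miR-214 showed the same 2 libraries at the low end. Counts of miR-214-y were 5.85, 7.51 and 7.73 times those of miR-214-x in heat replicates 1 to 3 and 7.58, 3.41 and 6.58 times in control replicates 1 to 3. The log2 ratio averaged 2.80 ± 0.221 in heat and 2.47 ± 0.615 in control (SD, n = 3 each), a difference of 0.332 (exact permutation p = 0.6). Without control replicate 2 this difference was -0.0184, and without heat replicate 1 as well it was 0.109.

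**Figure D2:**
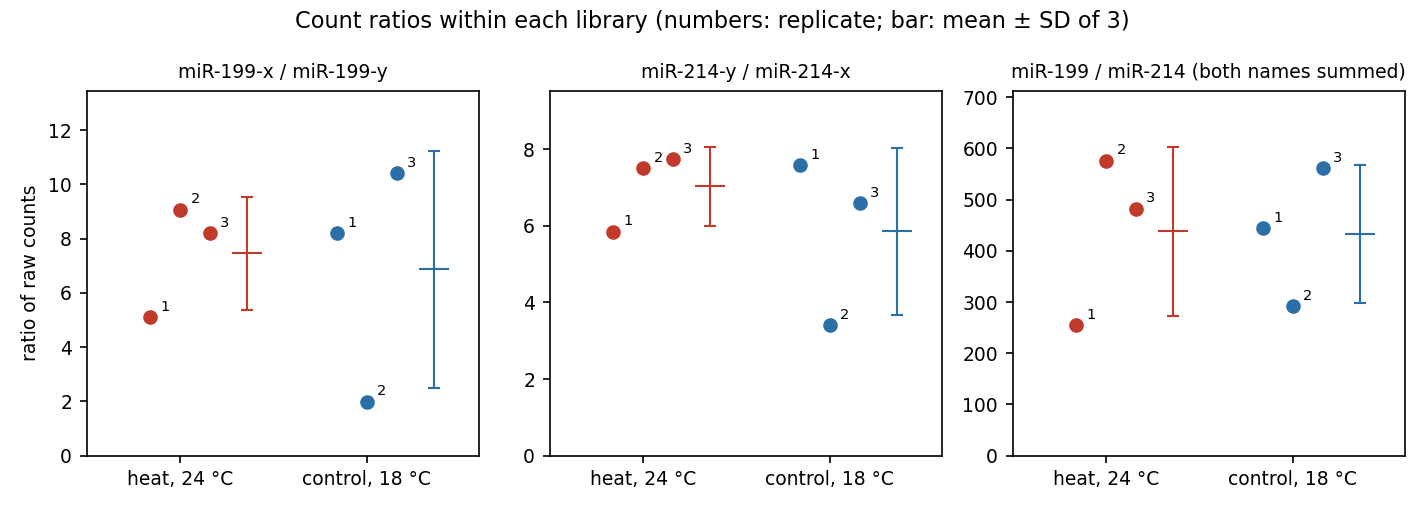
Ratios of raw counts within each library, heat left and control right, with replicate numbers and the mean ± SD of 3 libraries. In both hairpins control replicate 2 has the lowest ratio of the more to the less abundant strand (1.99 and 3.41), followed by heat replicate 1 (5.10 and 5.85).

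Across the hairpins, the miR-199 names summed to 255, 576 and 482 times the miR-214 names in heat replicates 1 to 3 and to 445, 292 and 562 times in control replicates 1 to 3. The low libraries were again heat replicate 1 and control replicate 2, and the mean log2 ratio differed by -0.0125 between heat and control (exact permutation p = 1). Of the 5 ratios tested, the one that varied least in control was that of miR-199-y to miR-214-x, at 287, 487 and 458 in heat replicates 1 to 3 and 415, 430 and 373 in control replicates 1 to 3, a difference in log2 of -0.0196 (exact permutation p = 1). In heat it was not the steadiest, with an SD in log2 of 0.417 against 0.221 for miR-214-y over miR-214-x. For miR-199-x over miR-214-x the ratios were 1463, 4412 and 3752 in heat replicates 1 to 3 and 3403, 855 and 3885 in control replicates 1 to 3, a difference in log2 of 0.366 (exact permutation p = 0.6).

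The strand balance of miR-199 was set beside that of other families. There were 58 known families with both an x and a y name tested and a mean of at least 50 counts for the less abundant name. In control replicate 2 the log2 ratio of the less to the more abundant name lay above the mean of the other 5 libraries by 2.0 for miR-199 and by 1.04 for miR-214, where the median family lay 0.30 above it and 36 of 58 families were above 0. A deviation larger than that of miR-199, in either direction, was seen in 6 of the other 57 families. More families lay beyond miR-214, such as miR-21 at 1.52 and miR-26 at 1.75. In heat replicate 1, miR-199 was at 0.37, close to the median of 0.35. Over the 6 libraries the balance of miR-199 spanned 2.39 in log2 and that of miR-214 spanned 1.18, against a median of 1.27, and 7 families had a wider span than miR-199.

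**Figure D3:**
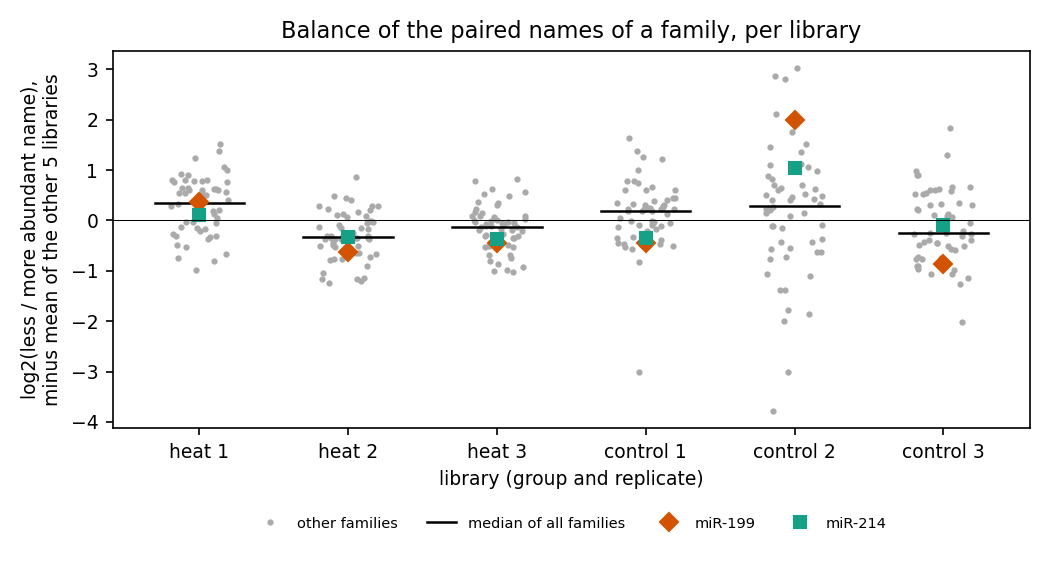
Deviation of the log2 ratio of the less to the more abundant name of a family from the mean of the other 5 libraries (y axis), by library (x axis), for 58 known families, with the median as a line. miR-199 (diamond) is at 2.0 and miR-214 (square) at 1.04 in control replicate 2, above the median of 0.30, and miR-199 is near the median in heat replicate 1.

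How the members followed one another depended on the libraries that stand apart. Over the 6 libraries the Pearson correlation of log2 CPM was -0.66 between miR-199-x and miR-199-y, -0.85 between miR-199-x and miR-214-x, -0.41 between miR-199-y and miR-214-y, and -0.07 between miR-214-y and miR-214-x. Over the 4 libraries without control replicate 2 and heat replicate 1 these were 0.32, 0.69, 0.89 and 0.88, so each negative value rests on those libraries. The correlation of miR-199-y and miR-214-x was 0.69 over 6 libraries and 0.61 over 4, and that of miR-199-x and miR-214-y was 0.44 over 6 and 0.45 over 4. These are descriptions of few libraries, which share one scaling. Among 127 known names above a mean log2 CPM of 5, miR-199-x was most like miR-122-x, the main hepatocyte miRNA (r = 0.994), then miR-455-y (0.984), miR-15-x (0.969), miR-125-x (0.958) and miR-459-y (0.953). miR-199-y was most like miR-152-y (0.941), miR-107-y and miR-103-y (0.923 each), miR-722-x (0.907) and miR-146-x (0.892). For miR-214-x the nearest were miR-122-y (0.976), miR-21-y (0.966), miR-130-y (0.956), miR-194-y (0.948) and miR-223-y (0.944). For miR-214-y they were miR-16-x (0.902), miR-150-x (0.860), miR-235-y (0.847), miR-499-x (0.814) and miR-210-y (0.806). The strands of each hairpin had no name in common among these 5. Over the same 4 libraries the correlations of these names ran from -0.112 (miR-459-y) to 0.735 (miR-122-x) for miR-199-x, from -0.444 (miR-146-x) to 0.728 (miR-722-x) for miR-199-y, from 0.776 to 0.923 for miR-214-x and from 0.715 to 0.990 for miR-214-y. The likeness of miR-199-x and miR-199-y to these names therefore rests in large part on control replicate 2 and heat replicate 1.

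The ratio of miR-122-x to miR-199-x was 3.27, 2.76 and 2.82 in heat replicates 1 to 3 and 2.57, 3.74 and 2.89 in control replicates 1 to 3. It spanned less than the ratio between the strands of miR-199. This comparison is no test, because miR-122-x was picked as the name most correlated with miR-199-x over these same libraries. Sums of marker lists in the same libraries were led by few names. Mesenchymal and smooth muscle names summed to 27764, 32193 and 30280 CPM in heat replicates 1 to 3 and 28091, 44981 and 27264 CPM in control replicates 1 to 3, and endothelial names to 23044, 40621 and 35523 CPM in heat replicates 1 to 3 and 32806, 21456 and 41489 CPM in control replicates 1 to 3. The first sum was highest in control replicate 2, where miR-199-x was lowest, and the second was lowest there. Single names did not all follow these sums. miR-143-y, at 21589 CPM, miR-152-y, at 18218 CPM, miR-140-y, miR-140-x and miR-218-x were highest in control replicate 2. miR-143-x, at 205 CPM, and miR-455-y, at 201 CPM, were lowest there, and the other mesenchymal and smooth muscle names were neither. miR-126-y was lowest in control replicate 2, but miR-126-x was lowest in control replicate 3, at 1629 CPM. Leukocyte names summed to 18616, 16776 and 17805 CPM in heat replicates 1 to 3 and 18072, 32610 and 16865 CPM in control replicates 1 to 3. Epithelial names summed to 4072, 3034 and 2668 CPM in heat replicates 1 to 3 and 2431, 6229 and 3861 CPM in control replicates 1 to 3. Control replicate 2 had the highest sum in both lists and the lowest in the hepatocyte list, but not every name followed. Of the tested epithelial names, miR-200-y, miR-141-y, miR-200-z and miR-429-y were highest there, and miR-200-x was highest in heat replicate 1. Most of the leukocyte sum of control replicate 2 was miR-146-x, at 30059 CPM, and the tested miR-155-x and miR-223-y were also highest there. miR-150-x was at 39.9 CPM there, its lowest library. miR-142-x, miR-146-y and miR-223-x were highest in control replicate 1, and miR-142-y in heat replicate 1. In the hepatocyte list miR-122-x was lowest in control replicate 2, at 147765 CPM. By contrast miR-148-y, at 29686 CPM, miR-148-x, miR-122-y, miR-192-z and miR-194-y were highest there. The other hepatocyte names were neither. Of the 11 leukocyte names 8 were tested, of the 7 epithelial names 5 and of the 9 hepatocyte names 9, and 2 leukocyte, 2 epithelial and 0 hepatocyte names were at 0 in at least 1 library. The part of these cell types in the member levels was not tested.

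The mesenchymal and smooth muscle list and the endothelial list likewise gave no call. In the mesenchymal and smooth muscle list, 6 of 7 families were in the tables with 11 names, all tested, of which 5 had a fold above 1 and 6 below, with a median log2 fold change of -0.04 and 0 calls. The 2 endothelial names had a median of 0.09. Over all tested names 307 were above and 344 below, with a median of -0.02. Heat and control did not overlap for 1 of the 11 mesenchymal and smooth muscle names, miR-140-y, lower in heat, and for 8.29% of all tested names. miR-143-y and miR-145-y, the leading strands of the smooth muscle miRNAs miR-143 and miR-145, differed by -0.08 ± 0.24 and 0.06 ± 0.22 in fitted log2 (SE), and miR-143-x and miR-145-x by 0.15 ± 0.25 and 0.26 ± 0.26 (SE). miR-140-y and miR-455-x, of families known from cartilage, were at -0.37 ± 0.24 and 0.19 ± 0.26, their partners miR-140-x and miR-455-y at -0.10 ± 0.42 and 0.02 ± 0.24, and miR-218-x at -0.08 ± 0.40 (SE). miR-152-y measured 8439 ± 681 CPM in heat and 10979 ± 6398 CPM in control (SD, n = 3 each), a log2 fold change of -0.38 ± 0.39 (SE), and miR-152-x was at -0.04 ± 0.28. The endothelial miR-126-y stood at 30830 ± 8897 CPM in heat and 29870 ± 10134 CPM in control (SD, n = 3 each; log2 fold change 0.05 ± 0.34, SE) and miR-126-x at 0.13 ± 0.25. All of these had an edgeR adjusted p of 0.995.

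**Figure D4:**
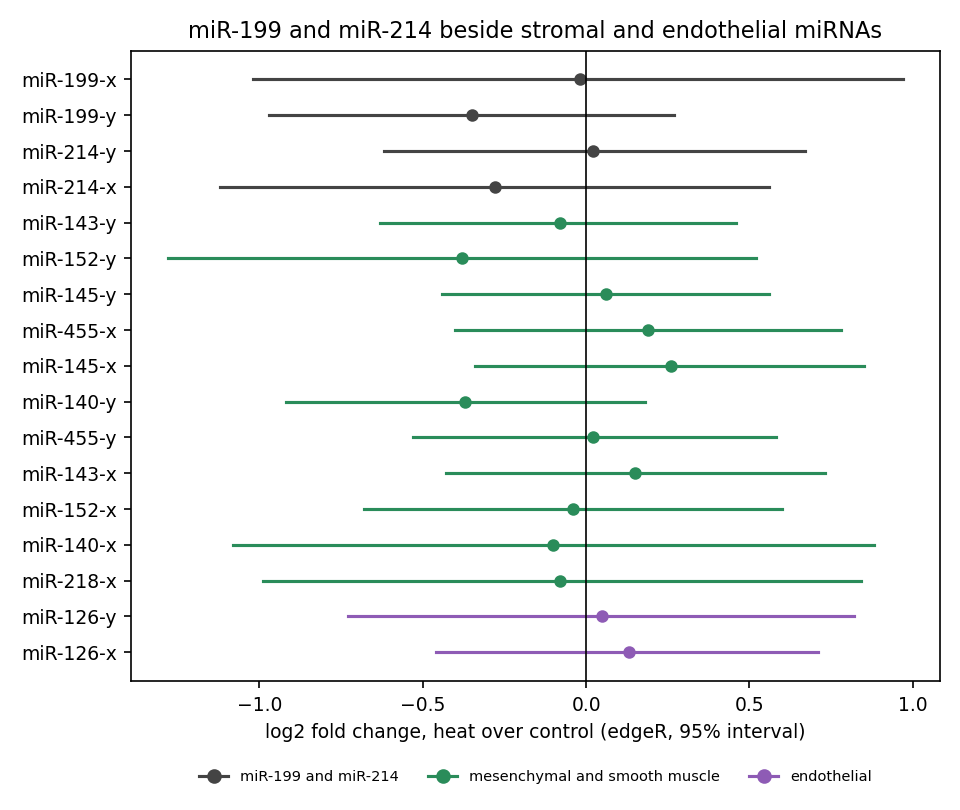
Fitted log2 fold change of heat over control with its 95% interval for the 4 members, the 11 mesenchymal and smooth muscle names and the 2 endothelial names (3 libraries per group, edgeR). Every interval crosses 0, and the fitted values run from -0.38 (miR-152-y) to 0.26 (miR-145-x).

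Other miRNAs that have been linked to liver fibrosis had 7 of 15 tested names above 1 and 8 below, a median log2 fold change of -0.05 and 0 calls. miR-30-x and miR-21-x, the most abundant of them, were at 0.03 ± 0.21 and 0.05 ± 0.22 (SE). Hepatocyte names had 1 of 9 above 1 and a median of -0.11, with miR-122-x at -0.02 ± 0.34 and miR-192-x at 0.19 ± 0.27 (SE). Of the 8 leukocyte names none had a fitted fold above 1 and the median was -0.45, with miR-146-x at -0.34 ± 0.31 and miR-142-x at -0.41 ± 0.45 (SE). Erythrocyte names had a median of -0.08 over 5 names (miR-451-x -0.16 ± 0.32, miR-144-y 0.47 ± 0.25), and epithelial names of -0.31 over 5 (miR-200-y -0.31 ± 0.35, miR-141-y -0.11 ± 0.29, SE). Pancreas names had a median of -0.22 over 4 (miR-375-y 0.62 ± 0.27, miR-216-x -0.76 ± 0.88), skeletal and heart muscle names of -0.12 over 6 (miR-499-x -0.04 ± 0.42, miR-1-z -0.27 ± 0.45), and retina and neural names of -0.17 over 6 (miR-124-y 0.36 ± 0.37, miR-183-x -0.22 ± 0.47, SE). The fitted fold was above 1 for 2 of 5 erythrocyte, 1 of 5 epithelial and 2 of 4 pancreas names. It was above 1 for 0 of 6 skeletal and heart muscle names and 2 of 6 retina and neural names. Over all known family names tested, 88 were above 1 and 161 below, with a median of -0.12, and 0 names of any list were called. The groups did not overlap for 2 of 8 leukocyte, 1 of 5 erythrocyte and 1 of 4 pancreas names. In the other lists of this paragraph 0 names did so, against 8.29% of all tested names. Without control replicate 2 and heat replicate 1 the medians were 0.14 for the mesenchymal and smooth muscle list, 0.04 for the endothelial list, -0.01 for the fibrosis list and -0.08 for the hepatocyte list. They were -0.67 for leukocyte, 0.16 for erythrocyte, -0.21 for epithelial, -1.28 for pancreas, -0.19 for skeletal and heart muscle and -0.05 for retina and neural names.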

How the data were processed

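Per the file headers, each deposited table gives the sequence, length, whole-number count and a scaled abundance value of each miRNA name. The authors' counts were used as deposited; how they were made, with which aligner, miRNA database and build, the sources used here do not give. One protocol field describes retina and an rRNA-depleted, fragmented preparation, which does not describe a small RNA library.

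The test of heat against control was edgeR's robust quasi-likelihood test (edgeR 4.0.16, R 4.3.3) after TMM scaling and filterByExpr at a minimum of 10 counts, with Benjamini-Hochberg adjustment over all 651 names tested. CPM values use TMM-adjusted library sizes, and log2 CPM a pseudocount of 0.5. Standard errors were taken from each fitted log2 value and the square root of its F. Shares and ratios used a two-sided exact permutation test over libraries. DESeq2 1.42.0, limma 3.58.1, Python 3.11.15, matplotlib 3.10.9 and RNAduplex of ViennaRNA 2.7.2 were also used.

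The members and lists were chosen with earlier results of these data known. Beyond the members, the names given are the 5 known names most correlated with each member, names sharing a seed, all tested mesenchymal, smooth muscle and endothelial names, and the 2 most abundant of each other list. Outside this rule, further hepatocyte, leukocyte and epithelial names were given where the list sums in control replicate 2 are broken down. The families miR-21 and miR-26 were given as examples of strand balance. miR-214-y meets the membership rule but was not in the planned ratios: the values with it, the ratio of the summed families and the comparison of strand balance over families were added after its counts were seen, which makes 10 adjusted values.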

Additional observations from a re-analysis of the deposited data

How the results depend on the processing

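No member passed the adjusted p threshold under any of the 17 alternatives, but with fitted values this near 0 signs were not stable, and the 95% interval of miR-199-x does not exclude changes of nearly 2-fold (0.494-fold to 1.96-fold). Over all names, DESeq2 called 2 and edgeR 23, both without the low-count filter, and the other alternatives called 0. The cause was not tested. For miR-199-x the log2 fold change was 0.018 without a filter, 0.064 with the replicate block and 0.060 with known family names alone, and ran from -0.37 to 0.23 with 1 library left out. That of miR-214-y was -8.3e-05 at a minimum count of 20, -0.14 with limma-voom quality weights and -0.25 without control replicate 2 and heat replicate 1 together, and ran from -0.13 to 0.20. Those of miR-199-y (-0.49 to -0.089) and miR-214-x (-0.51 to -0.077) kept their sign. With 1 library left out, the heat minus control share ran from -1.80 to 0.999 percentage points for miR-199-x, -0.719 to 0.0483 for miR-199-y, -0.00294 to 0.00329 for miR-214-y, -0.00157 to 0.000283 for miR-214-x and -1.75 to 0.449 for the 4 names together. The log2 ratio difference ran from -0.353 to 0.842 for miR-199-x over miR-199-y, -0.330 to 0.858 for miR-199-x over miR-214-x, -0.162 to 0.22 for miR-199-y over miR-214-x, -0.0184 to 0.558 for miR-214-y over miR-214-x and -0.272 to 0.336 for the miR-199 names over the miR-214 names. Without control replicate 2 and heat replicate 1 together, differences that changed sign were -0.00308 percentage points (miR-214-y share), and in log2 -0.101 (miR-199-x over miR-199-y), 0.263 (miR-199-y over miR-214-x) and 0.0764 (miR-199 over miR-214 names). With 1 library left out, list medians ran from -2.02 to 0.12 (pancreas), -0.32 to -0.04 (skeletal and heart muscle), -0.68 to -0.20 (leukocyte), -0.59 to 0.04 (epithelial), -0.39 to 0.06 (retina and neural), -0.22 to 0.14 (erythrocyte), -0.19 to 0.02 (hepatocyte), -0.09 to 0.07 (fibrosis), -0.07 to 0.11 (mesenchymal and smooth muscle) and -0.06 to 0.24 (endothelial). Dropping control replicate 2 with heat replicate 1, a choice made for correlations after seeing the data, turned 4 correlations between members positive (0.32, 0.69, 0.89 and 0.88). Whether equal replicate numbers mark paired libraries cannot be told from 3 libraries per group. The correlations of their deviations were 0.0812, -0.193 and 0.151, and those of unequal numbers ran from -0.326 to 0.23. The replicate block called 0 names, as did the main fit.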
